A study of Mus musculus with 24 samples.

Results

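The genes described here were the transcriptional coactivators *Yap1* and *Wwtr1* (the gene for TAZ), the DNA-binding factors *Tead1* and *Tead2*, and 6 genes known as targets of YAP and TEAD, *Ccn1*, *Ccn2*, *Ankrd1*, *Amotl2*, *Lats2* and *Ajuba*. They were chosen by symbol, and all 10 were found among the 26411 genes counted in each of 24 RNA sequencing libraries. The libraries came from neural stem and progenitor cells (NSPCs) of C57BL/6 mouse embryos at E12.5, taken from the dorsal telencephalon, from which the cerebral cortex forms. There were 4 libraries, each labelled with a different embryo, in each of 6 groups, namely wildtype *Kat6a*+/+, heterozygous *Kat6a*+/– and homozygous mutant *Kat6a*–/– NSPCs (WT, HET KO and HOM KO in the sample labels) in a proliferating and in a differentiating condition. *Kat6a* encodes a histone acetyltransferase, and its null allele lacked 5 exons, which brings a premature stop codon into the catalytic domain. Proliferating NSPCs were grown with FGF2 and EGF on uncoated plastic, where *Kat6a*+/+ NSPCs formed floating colonies. The paper describes *Kat6a*+/– colonies there as smaller and tending to attach, and *Kat6a*–/– NSPCs as mostly attached. Attachment thus differed between genotypes in the proliferating condition, and its part in the RNA levels was not tested. Differentiating NSPCs were kept for 3 days on a coated surface with 1% serum and without these growth factors. Medium, serum, surface and RNA kit changed together with the condition, so that their effects cannot be told apart. The question was how the genes of the YAP and TEAD module differed between genotypes in each condition.

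YAP and TAZ carry signals on cell attachment, cell shape and tension of the actin cytoskeleton into the nucleus, where they bind TEAD proteins and raise transcription of TEAD target genes. The Hippo kinase cascade opposes them: the LATS kinases phosphorylate YAP and TAZ, which are then held in the cytoplasm or degraded. Several of the targets feed back on the pathway, since *Lats2* encodes such a kinase, *Amotl2* an angiomotin that binds YAP, and *Ajuba* a LIM-domain protein that inhibits LATS kinases. In the developing cortex, YAP and TEAD proteins are known for their part in the growth of radial glia and other progenitors. RNA levels of these genes do not show whether YAP and TAZ proteins were in the nucleus.

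TEAD proteins recognise the letters GGAATG, or CATTCC when read on the opposite strand. Sequences from 250 bases before to 50 bases after an annotated transcription start, taken from a RefSeq promoter table of build GRCm38.p6, were matched for 8 of the 10 genes, with 10 windows between them. GGAATG occurred on either strand in 8 of these 10 windows, which belonged to 7 of 8 genes, and in 14.7% of all 32851 windows of that length in the table. Among these, both windows of *Wwtr1* overlap and hold the same match. A window is shown for each of the 5 target genes that had one, for *Lats2* the one with a match. That of *Tead2*, the only gene with a window and no match, is shown as well. The windows of *Yap1* and *Wwtr1* are not shown. Letters run 5′ to 3′ on the strand of the gene, and capitals mark GGAATG or CATTCC.
*Ccn1* (chr3:145649936-145650235, minus strand): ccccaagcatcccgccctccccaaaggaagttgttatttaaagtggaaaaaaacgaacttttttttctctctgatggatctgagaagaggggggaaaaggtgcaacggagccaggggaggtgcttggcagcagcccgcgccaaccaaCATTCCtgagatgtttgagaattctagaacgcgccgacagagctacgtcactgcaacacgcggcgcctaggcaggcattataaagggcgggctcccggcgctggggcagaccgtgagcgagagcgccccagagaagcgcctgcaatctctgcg
*Ankrd1* (chr19:36119795-36120094, minus strand): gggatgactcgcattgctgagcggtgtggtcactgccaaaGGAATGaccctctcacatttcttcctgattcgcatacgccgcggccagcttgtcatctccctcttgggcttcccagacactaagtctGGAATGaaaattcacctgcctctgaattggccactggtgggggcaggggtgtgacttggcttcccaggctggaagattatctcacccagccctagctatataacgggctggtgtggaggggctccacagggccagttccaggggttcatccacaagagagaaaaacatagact
*Amotl2* (chr9:102717554-102717853, plus strand): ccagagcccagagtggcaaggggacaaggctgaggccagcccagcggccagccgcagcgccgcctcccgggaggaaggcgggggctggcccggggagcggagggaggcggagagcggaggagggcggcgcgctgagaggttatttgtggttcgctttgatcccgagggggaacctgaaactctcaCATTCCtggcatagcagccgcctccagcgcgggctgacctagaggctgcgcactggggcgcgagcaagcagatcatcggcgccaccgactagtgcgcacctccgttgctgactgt
*Lats2* (chr14:57746074-57746373, minus strand): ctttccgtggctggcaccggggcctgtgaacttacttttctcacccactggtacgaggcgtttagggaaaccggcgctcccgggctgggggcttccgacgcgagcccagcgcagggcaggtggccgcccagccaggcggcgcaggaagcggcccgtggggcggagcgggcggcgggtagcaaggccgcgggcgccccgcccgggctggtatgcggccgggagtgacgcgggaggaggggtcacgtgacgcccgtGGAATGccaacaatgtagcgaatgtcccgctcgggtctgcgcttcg
*Ajuba* (chr14:54577612-54577911, minus strand): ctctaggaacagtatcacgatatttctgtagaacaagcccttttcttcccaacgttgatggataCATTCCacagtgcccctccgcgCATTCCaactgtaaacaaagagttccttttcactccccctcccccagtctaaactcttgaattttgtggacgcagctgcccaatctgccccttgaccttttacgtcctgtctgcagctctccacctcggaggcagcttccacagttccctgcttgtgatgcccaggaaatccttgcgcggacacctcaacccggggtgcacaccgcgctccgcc
*Tead2* (chr7:45215542-45215841, plus strand): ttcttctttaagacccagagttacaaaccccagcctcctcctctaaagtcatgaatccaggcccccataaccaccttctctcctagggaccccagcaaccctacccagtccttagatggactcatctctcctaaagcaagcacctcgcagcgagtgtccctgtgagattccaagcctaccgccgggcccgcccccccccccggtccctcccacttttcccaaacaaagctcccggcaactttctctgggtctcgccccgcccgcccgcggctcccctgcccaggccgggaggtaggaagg

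Counted from the start, the first base of the match lay at -103 in *Ccn1*, at -210 and -123 in *Ankrd1*, at -65 in *Amotl2*, at 5 in the shown window of *Lats2*, and at -186 and -164 in *Ajuba*. Upstream of *Yap1* a match lay at -141. Of 2 windows listed for *Lats2* the other held none. The AP-1 letters TGANTCA were in none of the 10 windows and in 7.81% of all windows, and the CArG box, the motif of serum response factor, was in none of the 10 and in 1.63% of all; no overlap between the 3 motifs was therefore possible here. Such matches describe the letters within these windows and not binding.

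Library totals ranged from 7826660 to 40838203 counts. Values per library are CPM, counts brought to a common library size with TMM scaling over the 24 libraries. They are given in the order of replicates 1 to 4, and compare a gene between libraries and not one gene with another. A gene was called where limma gave a Benjamini-Hochberg adjusted FDR below 0.05 over all protein-coding genes that passed a filter on low counts. *Kat6a* itself, counted over all of its exons, had CPM of 373 to 409 (*Kat6a*+/+), 333 to 368 (*Kat6a*+/–) and 334 to 389 (*Kat6a*–/–) in proliferating and of 239 to 292, 215 to 257 and 160.0 to 253 in differentiating libraries, and since the deleted exons were not counted apart, this says little about the labels. *Sox2*, *Nes* and *Pax6*, markers of forebrain progenitors, were detected, whereas *Emx1*, which marks the dorsal telencephalon, was at or under the level of 3 counts except in 1 differentiating *Kat6a*–/– library. By RNA of Y-linked genes (above 100 CPM), either condition held 3 male *Kat6a*+/+ libraries among 4 but 1 male library among 4 for *Kat6a*+/– as for *Kat6a*–/–, so that genotype and sex were partly confounded. In bulk RNA, fewer cells of a type and less RNA per cell cannot be told apart.

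The genes of the module moved mostly with the condition and, in differentiating NSPCs, with the genotype. In *Kat6a*+/+ NSPCs, all 9 genes tested differed between the conditions, and the 5 tested targets were higher in differentiating NSPCs, by 2.25 to 7.32 on the log2 scale. In proliferating *Kat6a*–/– vs. *Kat6a*+/+ NSPCs only *Tead2* and *Amotl2* differed, and both were lower. In differentiating *Kat6a*–/– vs. *Kat6a*+/+ NSPCs all 5 tested targets, *Yap1* and *Wwtr1* were higher and *Tead2* was lower, while in *Kat6a*+/– vs. *Kat6a*+/+ NSPCs no gene of the module was called in either condition. Much of the rise of the targets in differentiating *Kat6a*–/– NSPCs rested on replicates 1 and 3, whereas the lower *Tead2* did not.

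Read against all genes, the counts were as follows. In proliferating NSPCs, 2 of 9 members were called in *Kat6a*–/– vs. *Kat6a*+/+ (30.0% of all genes tested), 0 of 9 in *Kat6a*+/– vs. *Kat6a*+/+ (0% of all genes) and 0 of 9 in *Kat6a*–/– vs. *Kat6a*+/– (14.8% of all genes). In differentiating NSPCs, 8 of 9 members were called in *Kat6a*–/– vs. *Kat6a*+/+ (54.4% of all genes), 0 of 9 in *Kat6a*+/– vs. *Kat6a*+/+ (0%) and 6 of 9 in *Kat6a*–/– vs. *Kat6a*+/– (37.5%). Between differentiating and proliferating NSPCs, 9 of 9 were called in *Kat6a*+/+ (72.9%) and 8 of 9 in *Kat6a*–/– (69.2%), and the change from *Kat6a*+/+ to *Kat6a*–/– differed between the conditions, as an interaction term, for 3 of 9 (13.9%). *Ankrd1* passed no filter and was not tested. For *Kat6a*+/– vs. *Kat6a*+/+, limma called 0 genes in proliferating NSPCs (912 at an unadjusted p below 0.05; 0 by edgeR and 28 by DESeq2) and 0 in differentiating NSPCs (1926 at an unadjusted p below 0.05; 0 by edgeR and 8 by DESeq2). The comparisons of a condition share their *Kat6a*+/+ or *Kat6a*–/– libraries and are not independent of each other.

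**Figure D1:**
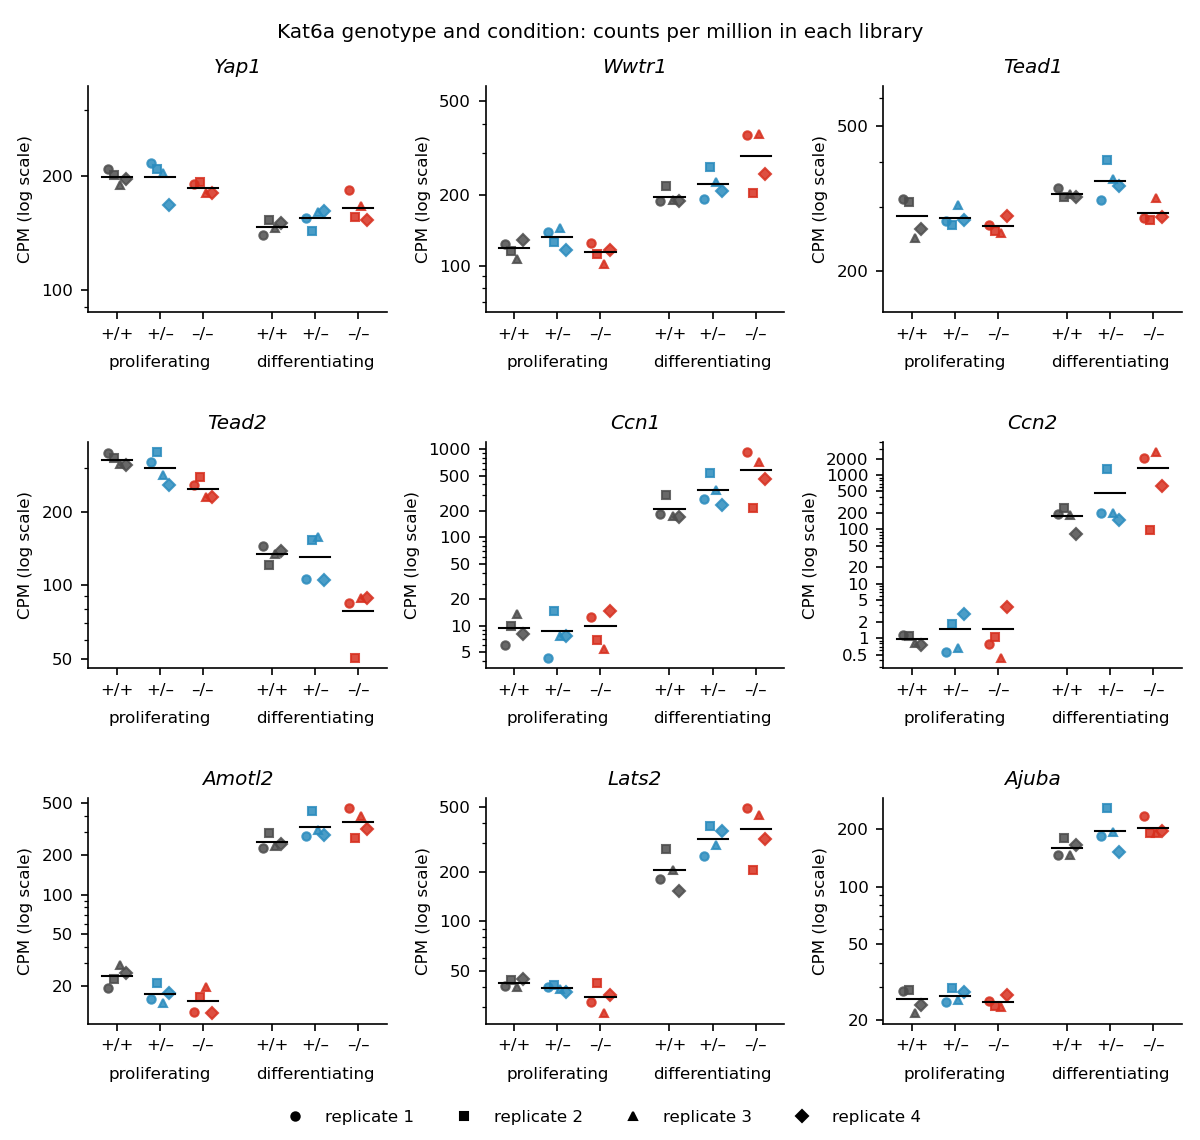
CPM (log scale) of the 9 tested genes in each of the 24 libraries, with 1 point per library (marker shape gives the replicate) and a line at the mean of each group of 4. The 5 targets in the middle and bottom rows sit far higher in differentiating than in proliferating NSPCs, and the differentiating *Kat6a*–/– libraries are spread widely, *Ccn2* from 97.4 to 2652 CPM.

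To compare the genes with each other, CPM were divided by gene length in kilobases. In proliferating *Kat6a*+/+ NSPCs, *Tead2* had the highest level per kilobase (138 CPM per kb), above *Yap1* (47.8), which was above *Tead1* (28.5) and *Wwtr1* (24.8), whose libraries overlapped. *Lats2* (7.61), *Ajuba* (7.37), *Amotl2* (5.72) and *Ccn1* (4.65) followed, each overlapping the next, then *Ccn2* (0.394) and *Ankrd1* at 0. The order was turned over in differentiating *Kat6a*+/+ NSPCs, where *Ccn1* (103 CPM per kb), *Ccn2* (73.5) and *Amotl2* (59.6) had the highest means, followed by *Tead2* (57.0), *Ajuba* (45.4), *Wwtr1* (40.9), *Lats2* (36.8), *Yap1* (35.3) and *Tead1* (32.9). Differentiating *Kat6a*–/– NSPCs had *Ccn2* (563 CPM per kb) and *Ccn1* (285) at the top and *Yap1* (39.5), *Tead2* (33.1) and *Tead1* (29.1) last among the tested genes.

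Of the coactivators, *Yap1* (Entrez 22601, chromosome 9, 7932000 to 8004661, minus strand, build mm39 as for all gene positions) changed little. Its level was 209, 201, 189 and 197 CPM in the proliferating *Kat6a*+/+ libraries, 168 to 217 in *Kat6a*+/– and 180.1 to 193 in *Kat6a*–/–, and the groups overlapped. In differentiating NSPCs it was 139.7, 153, 146 and 150.2 CPM in *Kat6a*+/+, 155, 143, 161 and 162 in *Kat6a*+/– and 184, 156, 166 and 154 in *Kat6a*–/–. All 4 *Kat6a*–/– libraries lay above the 4 *Kat6a*+/+ libraries there, the lowest of them only just. The log2 fold-change in *Kat6a*–/– vs. *Kat6a*+/+ NSPCs was 0.22 (SE 0.054, FDR = 0.00487) in the differentiating and -0.040 (SE 0.067, FDR = 0.684) in the proliferating condition. The small rise was called in 4 of 11 alternative fits. Among those without a call, it was 0.064 (FDR = 0.267) with library totals in place of TMM and 0.16 (FDR = 0.144) without sample weights. The call was also lost without *Kat6a*–/– replicate 1, at 0.15 (FDR = 0.349), and without replicate 3, at 0.19 (FDR = 0.323). From the proliferating to the differentiating condition *Yap1* fell, by 0.43 on the log2 scale in *Kat6a*+/+ (FDR = 2.29e-05) and by 0.18 in *Kat6a*–/– NSPCs (FDR = 0.0376).

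*Wwtr1* (Entrez 97064, chromosome 3, 57363067 to 57483331, minus strand), which encodes TAZ, was at 124, 115, 107 and 129 CPM in proliferating *Kat6a*+/+, 139, 126, 145 and 117 in *Kat6a*+/– and 124, 112, 102 and 117 in *Kat6a*–/– libraries, with no separation of the genotypes. Its levels in differentiating NSPCs were 189, 217, 189 and 187 CPM in *Kat6a*+/+, 192, 263, 226 and 209 in *Kat6a*+/– and 359, 204, 363 and 246 in *Kat6a*–/– libraries. Replicates 1 and 3 of *Kat6a*–/– stood well above every other library, replicate 4 stood above *Kat6a*+/+, and replicate 2 lay within the *Kat6a*+/+ range. *Wwtr1* rose by 0.83 (SE 0.11, FDR = 6.21e-05) on the log2 scale in differentiating *Kat6a*–/– vs. *Kat6a*+/+ and by 0.71 (SE 0.13, FDR = 0.00167) in *Kat6a*–/– vs. *Kat6a*+/– NSPCs. In proliferating *Kat6a*–/– vs. *Kat6a*+/+ NSPCs the log2 fold-change was -0.018 (SE 0.089, FDR = 0.899), and the change differed between the conditions by 0.61 (SE 0.20, FDR = 0.0488), or with embryo as the random block by 0.61 (FDR = 0.0523), no longer called. From proliferating to differentiating NSPCs *Wwtr1* rose by 0.72 (SE 0.14, FDR = 1.07e-04) in *Kat6a*+/+ and by 1.33 (SE 0.14, FDR = 5.54e-08) in *Kat6a*–/–.

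Among the DNA-binding partners, *Tead1* (Entrez 21676, chromosome 7, 112278522 to 112506014, plus strand) was at 246 to 315 CPM in proliferating *Kat6a*+/+, 268 to 304 in *Kat6a*+/– and 255 to 283 in *Kat6a*–/– libraries. In the differentiating condition it was at 339, 319, 326 and 319 CPM in *Kat6a*+/+, 313, 404, 358 and 343 in *Kat6a*+/– and 280.4, 276, 317 and 282 in *Kat6a*–/– libraries. All *Kat6a*–/– libraries lay below all *Kat6a*+/+ libraries there, but the log2 fold-change of -0.11 (SE 0.069, FDR = 0.199) was not called. It was called with library totals in place of TMM, at -0.25 (FDR = 0.00600), a scaling that moved the median of all genes in this comparison to -0.17. *Tead1* was higher in differentiating than in proliferating *Kat6a*+/+ NSPCs, by 0.22 (SE 0.084, FDR = 0.0232), and the difference in *Kat6a*–/– NSPCs was 0.12 (SE 0.082, FDR = 0.209).

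*Tead2* (Entrez 21677, chromosome 7, 44865172 to 44883071, plus strand), the TEAD gene best known from neural progenitors, was lower in *Kat6a*–/– NSPCs in both conditions. In the proliferating condition it was at 347, 329, 314 and 309.8 CPM in *Kat6a*+/+, 318, 349.8, 283 and 258 in *Kat6a*+/– and 258, 276, 228 and 229 in *Kat6a*–/– libraries. All 4 *Kat6a*–/– libraries lay below all 4 *Kat6a*+/+ libraries, and the *Kat6a*+/– libraries overlapped both. In the differentiating condition *Tead2* was at 145, 121, 135 and 137 CPM in *Kat6a*+/+, 106, 154, 158 and 105 in *Kat6a*+/– and 84.6, 50.6, 88.9 and 88.5 in *Kat6a*–/– libraries. Here every *Kat6a*–/– library lay below every *Kat6a*+/+ and every *Kat6a*+/– library. On the log2 scale *Tead2* fell by 0.34 (SE 0.083, FDR = 0.00801) in proliferating and by 0.68 (SE 0.12, FDR = 4.43e-04) in differentiating *Kat6a*–/– vs. *Kat6a*+/+ NSPCs. Relative to *Kat6a*+/–, it fell by 0.47 (SE 0.14, FDR = 0.0191) in differentiating NSPCs, a call lost without *Kat6a*–/– replicate 1, at -0.85 (FDR = 0.123), and without replicate 3, at -0.94 (FDR = 0.118), and the difference in proliferating NSPCs, -0.24 (SE 0.080, FDR = 0.0548), was not called. The fall did not differ detectably between the conditions, with an interaction of -0.43 (SE 0.22, FDR = 0.203) and a 95% confidence interval of -0.90 to 0.035. Against *Kat6a*+/+ it held without *Kat6a*–/– replicate 1, at -1.03 (FDR = 0.0238), and without replicate 3, at -1.11 (FDR = 0.0243), and narrowly missed the threshold with litter as a fixed term, at -0.76 (FDR = 0.0628). With the condition, *Tead2* fell by 1.27 (SE 0.16, FDR = 3.69e-07) in *Kat6a*+/+ and by 1.70 (SE 0.16, FDR = 6.15e-09) in *Kat6a*–/– NSPCs.

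A gene and its relative can be set against each other within a library, which removes the scaling between libraries. Per length, *Tead2* made up 82.9% ± 1.14 (SD, n = 4) of *Tead1* plus *Tead2* in proliferating *Kat6a*+/+, 81.7% ± 2.48 in *Kat6a*+/– and 79.5% ± 1.88 in *Kat6a*–/– NSPCs. In the differentiating condition its share was 63.4% ± 1.37 in *Kat6a*+/+, 60.4% ± 3.69 in *Kat6a*+/– and 52.6% ± 6.15 in *Kat6a*–/– NSPCs. Every differentiating *Kat6a*–/– library (43.5% to 56.9%) lay below every *Kat6a*+/+ library (61.4% to 64.4%), a difference of -10.8 percentage points. The exact two-sided permutation p of this difference was 0.0286, the smallest that 4 against 4 libraries allow, and 0.229 after adjustment over 8 such tests. The share of *Wwtr1* in *Yap1* plus *Wwtr1* was 53.7% ± 1.36 in differentiating *Kat6a*+/+ and 60.0% ± 5.40 in *Kat6a*–/– NSPCs (exact permutation p = 0.0857, adjusted 0.229), and 34.2% and 34.7% in the proliferating condition. None of the 8 differences passed after adjustment. As 0.0286 was the smallest permutation p possible, 1 full separation among 8 tests could not have passed alone. The adjusted result therefore decides nothing about the *Tead2* share.

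**Figure D2:**
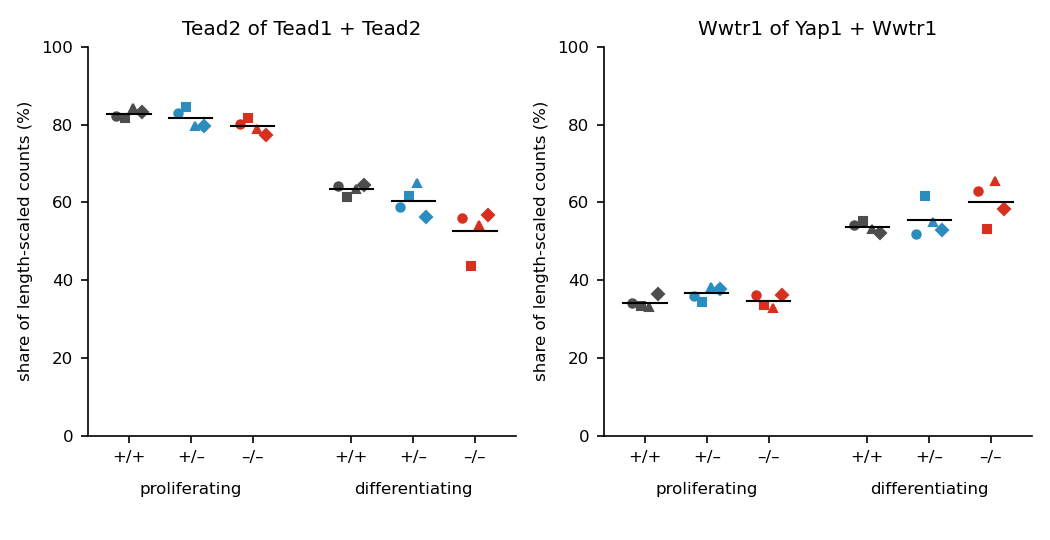
Share (%) of *Tead2* in *Tead1* plus *Tead2* (left) and of *Wwtr1* in *Yap1* plus *Wwtr1* (right) from counts per gene length, with 1 point per library (marker shape gives replicates 1 to 4 in order) and a line at each group mean. The *Tead2* share is lower in differentiating than in proliferating libraries of each genotype, and in the differentiating condition all 4 *Kat6a*–/– points lie below the *Kat6a*+/+ points.

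The targets that encode secreted matricellular proteins, *Ccn1* (Entrez 16007, chromosome 3, 145352720 to 145355738, minus strand; CYR61) and *Ccn2* (Entrez 14219, chromosome 10, 24471333 to 24474900, plus strand; CTGF), are the standard readouts of YAP and TAZ activity. In proliferating NSPCs *Ccn1* was low, at 6.07, 10.0, 13.5 and 8.12 CPM in *Kat6a*+/+, 4.35, 14.7, 7.59 and 7.71 in *Kat6a*+/– and 12.6, 6.83, 5.48 and 14.6 in *Kat6a*–/– libraries, and the genotypes overlapped. Once differentiating, NSPCs had 186, 299.6, 174 and 173 CPM in *Kat6a*+/+, 276, 536, 348 and 234 in *Kat6a*+/– and 926, 217, 713 and 456 in *Kat6a*–/– libraries. Of the *Kat6a*–/– libraries 3 lay above all *Kat6a*+/+ libraries, and replicate 2 lay within their range, as did the lower 2 *Kat6a*+/– libraries. The group means were 208 ± 61.4 CPM in *Kat6a*+/+, 348 ± 133 in *Kat6a*+/– and 578 ± 308 in *Kat6a*–/– NSPCs (SD, n = 4). *Ccn1* rose by 1.85 (SE 0.23, FDR = 4.28e-05) on the log2 scale in *Kat6a*–/– vs. *Kat6a*+/+ and by 1.15 (SE 0.27, FDR = 0.00624) in *Kat6a*–/– vs. *Kat6a*+/– NSPCs, and the value for *Kat6a*+/– vs. *Kat6a*+/+ was 0.70 (SE 0.24, FDR = 0.255) with an unadjusted p of 0.0133. With the condition it rose by 4.66 (SE 0.47, FDR = 1.92e-08) in *Kat6a*+/+ and by 5.77 (SE 0.61, FDR = 3.97e-08) in *Kat6a*–/–.

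*Ccn2* was near the detection limit in proliferating NSPCs, at 0.761 to 1.14 CPM in *Kat6a*+/+, 0.563 to 2.83 in *Kat6a*+/– and 0.438 to 3.69 in *Kat6a*–/– libraries, from 4 to 45 counts per library. Differentiating libraries had 191, 246, 187 and 83.4 CPM in *Kat6a*+/+, 200.4, 1322, 199 and 148 in *Kat6a*+/– and 2025, 97.4, 2652 and 641 in *Kat6a*–/– libraries. The 4 *Kat6a*–/– libraries thus spanned the widest range of any group, with replicates 1 and 3 above all others and replicate 2 within the *Kat6a*+/+ range, and 1 of the 4 *Kat6a*+/– libraries stood apart from the other 3. In *Kat6a*–/– vs. *Kat6a*+/+ differentiating NSPCs the log2 fold-change was 3.47 (SE 0.55, FDR = 2.59e-04), and in *Kat6a*–/– vs. *Kat6a*+/– it was 2.96 (SE 0.65, FDR = 0.00471). The rise with the condition was 7.32 (SE 2.23, FDR = 0.00574) in *Kat6a*+/+ and 9.36 (SE 2.62, FDR = 0.00343) in *Kat6a*–/–, with wide errors beside few counts in the proliferating libraries, and the interaction of 2.04 (SE 3.44, FDR = 0.740) had a 95% confidence interval of -5.11 to 9.19.

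*Ankrd1* (Entrez 107765, chromosome 19, 36089352 to 36097506, minus strand), a muscle-associated ankyrin repeat protein and YAP target, had 0 counts in all 12 proliferating libraries. In the differentiating libraries it had 0, 5, 4 and 0 counts in *Kat6a*+/+, 0, 2, 0 and 1 in *Kat6a*+/– and 20, 1, 25 and 1 in *Kat6a*–/–. Most of its counts were therefore in the *Kat6a*–/– replicates 1 and 3, the libraries with the highest *Ccn1* and *Ccn2*. Levels summed over a group were set against the level that 3 counts would give over the proliferating libraries of the same genotype. The ratio was 8.56 for differentiating *Kat6a*–/– NSPCs (47 counts) and 2.74 for *Kat6a*+/+ NSPCs (9 counts). The level of 3 counts covers counting error in the proliferating libraries only, and the error of the differentiating counts was not included. No test across all genes was made for it.

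Of the targets that act back on the pathway, *Amotl2* (Entrez 56332, chromosome 9, 102593836 to 102610617, plus strand) went down with the loss of *Kat6a* in one condition and up in the other. In proliferating NSPCs it was at 19.3, 22.5, 28.9 and 25.1 CPM in *Kat6a*+/+, 15.9, 21.0, 14.9 and 17.6 in *Kat6a*+/– and 12.8, 16.6, 19.8 and 12.4 in *Kat6a*–/– libraries, with 3 of 4 *Kat6a*–/– libraries below all *Kat6a*+/+ libraries. In differentiating NSPCs it was at 225, 297, 233 and 244 CPM in *Kat6a*+/+, 279, 431, 312 and 287 in *Kat6a*+/– and 458, 269, 396 and 318 in *Kat6a*–/– libraries, with 3 of 4 *Kat6a*–/– libraries above all *Kat6a*+/+ libraries. On the log2 scale the difference in *Kat6a*–/– vs. *Kat6a*+/+ NSPCs was -0.61 (SE 0.17, FDR = 0.0174) in the proliferating and 0.73 (SE 0.11, FDR = 2.25e-04) in the differentiating condition, and the interaction was 1.09 (SE 0.29, FDR = 0.0164). In proliferating NSPCs the call was lost without *Kat6a*–/– replicate 1, at -0.52 (FDR = 0.0558), or without replicate 4, at -0.52 (FDR = 0.0640). Values for *Kat6a*+/– vs. *Kat6a*+/+ were -0.38 (SE 0.15, FDR = 0.587) and 0.36 (SE 0.12, FDR = 0.253) in the proliferating and differentiating conditions, and that for *Kat6a*–/– vs. *Kat6a*+/– in the differentiating condition was 0.37 (SE 0.13, FDR = 0.0476). With the condition *Amotl2* rose by 3.46 (SE 0.18, FDR = 7.58e-13) in *Kat6a*+/+ and 4.55 (SE 0.24, FDR = 1.26e-12) in *Kat6a*–/– NSPCs.

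*Lats2* (Entrez 50523, chromosome 14, 57926960 to 57995845, minus strand) was at 40.6, 43.8, 39.9 and 44.7 CPM in proliferating *Kat6a*+/+, 39.8, 40.8, 38.8 and 37.1 in *Kat6a*+/– and 32.4, 42.1, 27.5 and 35.6 in *Kat6a*–/– libraries, with 3 of 4 *Kat6a*–/– libraries below all *Kat6a*+/+ libraries. The difference there, -0.28 (SE 0.11, FDR = 0.0623) on the log2 scale, was not called. It was called without *Kat6a*–/– replicate 2, at -0.37 (FDR = 0.0162), and with quality weights, at -0.29 (FDR = 0.0403), and was -0.15 (FDR = 0.279) without *Kat6a*–/– replicate 3. In differentiating NSPCs *Lats2* was at 182, 278, 205 and 153 CPM in *Kat6a*+/+, 251, 379.6, 293 and 356 in *Kat6a*+/– and 493, 207, 444 and 318 in *Kat6a*–/– libraries, with 3 of 4 libraries of each mutant genotype above all *Kat6a*+/+ libraries. It rose by 1.13 (SE 0.17, FDR = 1.56e-04) in *Kat6a*–/– vs. *Kat6a*+/+ and by 0.55 (SE 0.20, FDR = 0.0456) in *Kat6a*–/– vs. *Kat6a*+/– NSPCs, and the *Kat6a*+/– vs. *Kat6a*+/+ value was 0.58 (SE 0.18, FDR = 0.227) with an unadjusted p of 0.00666. The interaction of genotype and condition was 1.11 (SE 0.33, FDR = 0.0268), and with the condition *Lats2* rose by 2.25 (SE 0.22, FDR = 8.83e-09) in *Kat6a*+/+ and 3.36 (SE 0.24, FDR = 2.16e-10) in *Kat6a*–/–.

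*Ajuba* (Entrez 16475, chromosome 14, 54804787 to 54815027, minus strand) was at 21.7 to 29.0 CPM in proliferating *Kat6a*+/+, 24.9 to 29.5 in *Kat6a*+/– and 23.5 to 27.1 in *Kat6a*–/– libraries. In differentiating NSPCs it was at 146, 179, 146 and 165 CPM in *Kat6a*+/+, 184, 258, 192 and 151 in *Kat6a*+/– and 234, 190.1, 191 and 195 in *Kat6a*–/– libraries. All 4 *Kat6a*–/– libraries were above all 4 *Kat6a*+/+ libraries, and the *Kat6a*+/– libraries spanned both. The rise in *Kat6a*–/– vs. *Kat6a*+/+ NSPCs was 0.39 (SE 0.10, FDR = 0.00576), the smallest of the 5 tested targets, and the interaction was 0.43 (SE 0.21, FDR = 0.162). *Ajuba* rose with the condition by 2.58 (SE 0.14, FDR = 1.30e-12) in *Kat6a*+/+ and 3.01 (SE 0.16, FDR = 1.17e-12) in *Kat6a*–/–.

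**Figure D3:**
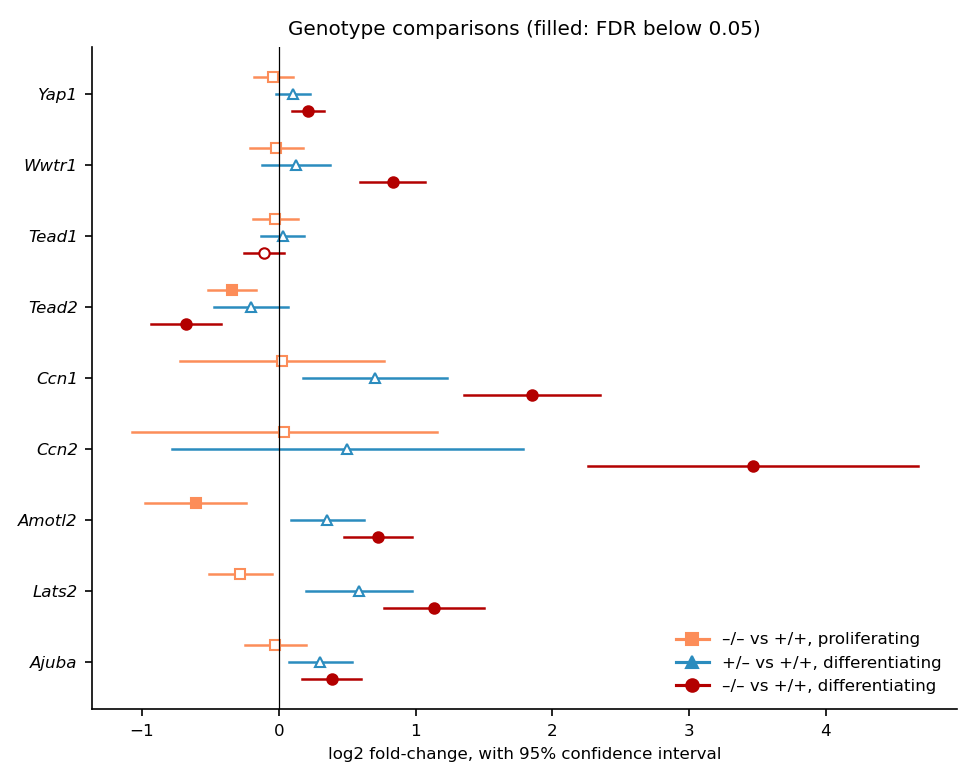
Log2 fold-change with its 95% confidence interval for the 9 tested genes in proliferating *Kat6a*–/– vs. *Kat6a*+/+ (squares), differentiating *Kat6a*+/– vs. *Kat6a*+/+ (triangles) and differentiating *Kat6a*–/– vs. *Kat6a*+/+ NSPCs (circles), filled where FDR was below 0.05. *Tead2* lies left of 0 in both *Kat6a*–/– comparisons, and the targets lie right of 0 in differentiating *Kat6a*–/– NSPCs, from 0.39 for *Ajuba* to 3.47 for *Ccn2*.

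Across the 10 genes, the *Kat6a*–/– and *Kat6a*+/+ libraries did not overlap for 1 gene (*Tead2*, lower) in the proliferating condition and for 4 genes in the differentiating condition, of which *Yap1* and *Ajuba* were higher and *Tead1* and *Tead2* lower. Of all genes tested, 31.3% and 26.9% did not overlap in these comparisons (30.0% and 54.4% were called). None of the 10 separated *Kat6a*+/– from *Kat6a*+/+ libraries in either condition, against 4.53% of all genes in the proliferating and 2.79% in the differentiating condition (0% called in both). Between the conditions, 7 genes were higher and 2 lower without overlap in *Kat6a*+/+ (71.9% of all genes without overlap, 72.9% called), and 7 were higher and 1 lower in *Kat6a*–/– (58.8% without overlap, 69.2% called). The 7 higher in *Kat6a*–/– include *Ankrd1*, which was not among the genes tested. Its separation there rests on 20, 1, 25 and 1 counts against 0, in part below the level of 3 counts.

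In the differentiating condition the fit gave each library a quality weight, and the *Kat6a*–/– libraries were weighted very unequally. Of the weight of the 4 *Kat6a*–/– libraries, replicate 3 held 69.0%, replicate 1 16.8%, replicate 4 10.0% and replicate 2 4.22%, and the fitted rises of the 5 targets were larger than those without weights. Without these weights 3 members were called in *Kat6a*–/– vs. *Kat6a*+/+, namely *Wwtr1* at 0.54 (FDR = 0.0459), *Tead2* at -0.81 (FDR = 0.0121) and *Ccn1* at 1.32 (FDR = 0.0362), and *Ccn2* was at 2.21 (FDR = 0.121); of all genes 23.2% were called. Without *Kat6a*–/– replicate 1 or without replicate 3, only *Tead2* was called, while the share of all genes called was 9.01% and 6.99%. *Ccn1* was then at 1.04 (FDR = 0.161) or 0.99 (FDR = 0.241), *Ccn2* at 1.48 (FDR = 0.441) or 0.87 (FDR = 0.686), *Lats2* at 0.63 (FDR = 0.263) or 0.57 (FDR = 0.373), and *Wwtr1* at 0.48 (FDR = 0.141) or 0.38 (FDR = 0.263). The direction of all 9 genes was the same when any 1 of the 12 differentiating libraries was left out. With litter as a fixed term 1 member was called, *Ccn1* at 1.91 (FDR = 0.0495) (13.4% of all genes called), and with sex as a term 7 were called (29.6%). In *Kat6a*–/– vs. *Kat6a*+/– NSPCs 0 members were called without *Kat6a*–/– replicate 1 (2.57% of all genes) or without replicate 3 (1.81%). There *Wwtr1* was at 0.34 (FDR = 0.4999) or 0.24 (FDR = 0.685), *Ccn1* at 0.32 (FDR = 0.812) or 0.27 (FDR = 0.878), *Ccn2* at 0.95 (FDR = 0.776) or 0.33 (FDR = 0.938), *Amotl2* at 0.079 (FDR = 0.923) or 0.085 (FDR = 0.928) and *Lats2* at 0.028 (FDR = 0.985) or -0.040 (FDR = 0.979).

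**Figure D4:**
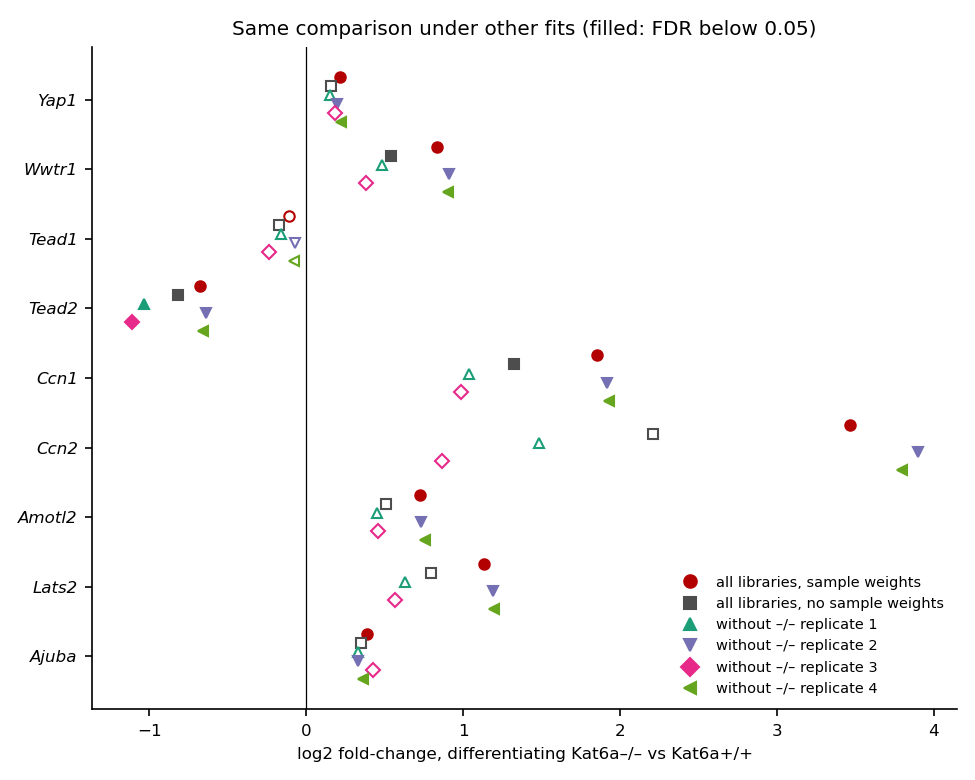
Log2 fold-change of the 9 tested genes in differentiating *Kat6a*–/– vs. *Kat6a*+/+ NSPCs with all libraries and sample weights (circles), without sample weights (squares), and without each *Kat6a*–/– replicate in turn, filled where FDR was below 0.05. *Ccn2* moves from 3.47 to 0.87 without replicate 3, whereas *Tead2* is filled and below 0 in all 6 fits.

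In differentiating NSPCs, markers of other cells moved with the same *Kat6a*–/– libraries. Of 8 fibroblast and meningeal markers, 4 were tested in differentiating NSPCs, and 3 were higher and 1 (*Pdgfra*, -2.28 (SE 0.29, FDR = 6.02e-05)) lower in *Kat6a*–/– vs. *Kat6a*+/+. Their summed level was 60.3 to 94.9 CPM in *Kat6a*+/+, 90.9 to 158 in *Kat6a*+/–, and 268, 42.0, 240.1 and 174 CPM in the 4 *Kat6a*–/– libraries, high in replicates 1, 3 and 4 and low in replicate 2. *Col1a1*, the gene of a fibrillar collagen chain, was at 176, 9.24, 142 and 101 CPM in *Kat6a*–/– libraries against a range of 2.10 to 16.3 in *Kat6a*+/+, whereas *Lum* was at or under the level of 3 counts in all differentiating groups. Of 6 pericyte and smooth muscle markers 2 were tested and both were higher in *Kat6a*–/–, with sums of 9.51 to 15.5 CPM in *Kat6a*+/+ and 13.6 to 31.4 in *Kat6a*–/– and *Kcnj8* at or under 3 counts. Of 6 astrocyte markers 1 was higher and 3 lower, with sums of 1992 to 3028 CPM in *Kat6a*+/+ and 1605, 5550.1, 1839.6 and 3066 CPM in the *Kat6a*–/– libraries, so that *Kat6a*–/– replicate 2, lowest in the targets, was highest here. Among them *Gfap* was at 148, 1905, 256 and 992 CPM in *Kat6a*–/– libraries, against a range of 339 to 703 in *Kat6a*+/+. Of 6 endothelial markers 1 was tested and was lower, with sums of 46.8 to 72.9 CPM in *Kat6a*+/+ and 10.7 to 36.8 in *Kat6a*–/– and *Cdh5* and *Cldn5* at or under 3 counts. Of 8 neural stem and progenitor markers 7 were tested, of which 2 were higher and 4 lower in *Kat6a*–/–, whereas their summed level was 6077 to 7723 CPM in *Kat6a*+/+ and 8280.1 to 11839.5 in *Kat6a*–/– libraries, without overlap. All 4 tested oligodendrocyte lineage markers were called, 1 higher and 3 lower, and of 5 tested neuronal markers 1 was higher and 2 lower. Oligodendrocyte lineage markers summed to 1145 to 1330.1 and 640.0 to 1175 CPM, neuronal markers to 516 to 664 and 459 to 769 CPM, and microglia and blood markers to at most 0.783 CPM. In proliferating *Kat6a*–/– vs. *Kat6a*+/+ NSPCs 4 of 5 tested astrocyte markers were higher and 0 lower (30.0% of all genes called). Their sums were 1285 to 1983 CPM in *Kat6a*–/– and 689 to 861 in *Kat6a*+/+ libraries. Of 7 tested neural stem and progenitor markers 1 was higher and 3 lower there, and of 4 tested neuronal markers 1 was higher and 2 lower. The part of these cells in the levels of the members was not tested in either condition.

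The remaining genes of the pathway were taken from 3 lists. Among 28 other Hippo pathway genes, all tested, in proliferating *Kat6a*–/– vs. *Kat6a*+/+ NSPCs 5 were higher and 3 lower (30.0% of all genes called), a share near that of all genes, with a median log2 fold-change of 0.023 against -0.0045 over all genes. The largest rises were in the atypical cadherin gene *Fat4* (0.79, FDR = 0.0387), the angiomotin gene *Amotl1* (0.41, FDR = 0.00524) and the kinase gene *Taok3* (0.35, FDR = 0.0432). The called falls were in the TEAD family gene *Tead4* (-1.31, FDR = 0.0114), the scaffold gene *Wwc1* (-1.08, FDR = 0.00122) and the adaptor gene *Sav1* (-0.21, FDR = 0.0481). Leaving out 1 library gave 3 to 9 called genes of the list, the fewest without *Kat6a*+/+ replicate 1, and *Fat4*, *Taok3* and *Sav1* lost the call in 7, 8 and 8 of the 12 fits. In differentiating *Kat6a*–/– vs. *Kat6a*+/+ NSPCs 10 were higher and 9 lower (54.4% of all genes called; median 0.091, all genes -0.016), led by *Frmd6* (1.18, FDR = 3.00e-04), *Ptpn14* (0.88, FDR = 3.46e-05) and *Wtip* (0.59, FDR = 0.00415) upwards and *Tead4* (-0.55, FDR = 0.0311), *Taok2* (-0.46, FDR = 6.51e-04) and *Limd1* (-0.41, FDR = 0.00185) downwards. *Tead4*, a further TEAD gene, was thus lower in both conditions, as *Tead2* was, but in differentiating NSPCs this was not so without *Kat6a*–/– replicate 1, at 0.0049 (FDR = 0.995), or without replicate 3, at 0.17 (FDR = 0.837). Leaving out either library left 1 and 0 genes of this list higher and 0 and 0 lower, where 9.01% and 6.99% of all genes were called.

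Of 16 other targets from YAP and TAZ signatures, 15 were tested. In proliferating *Kat6a*–/– vs. *Kat6a*+/+ NSPCs 9 were higher and 3 lower (30.0% of all genes called; median 0.40), although none of the 5 tested member targets was higher there. The receptor tyrosine kinase gene *Axl* (2.03, FDR = 4.41e-05), the membrane repair gene *Myof* (1.32, FDR = 0.0304) and *Ccdc80* (1.22, FDR = 0.0221) rose most, and *Nt5e* (-0.98, FDR = 0.0379), *Nuak2* (-0.83, FDR = 0.0224) and *Fjx1* (-0.31, FDR = 0.0218) fell. Leaving out 1 library gave 7 to 12 called genes, again the fewest without *Kat6a*+/+ replicate 1, and the call of *Nt5e* was lost in 8, of *Myof* in 5, of *Fjx1* in 3, of *Nuak2* in 2 and of *Ccdc80* in 1 of the 12 fits. In differentiating NSPCs 12 were higher and 0 lower in *Kat6a*–/– vs. *Kat6a*+/+ (26.7% of all genes called higher; median 0.82), with *Ccdc80* (2.71, FDR = 6.28e-06), *Myof* (2.15, FDR = 1.57e-05) and *Igfbp3* (1.74, FDR = 1.67e-04) at the top. Without *Kat6a*–/– replicate 1 and without replicate 3, 2 and 1 of the 15 were higher, beside 9.01% and 6.99% of all genes called in either direction. Of 12 genes of SRF and the actin cytoskeleton, which respond to tension as YAP does, 10 were tested in proliferating NSPCs, where 1 was higher, the myosin light chain gene *Myl9* (1.97, FDR = 0.00686), and 2 lower, the focal adhesion genes *Zyx* (-1.02, FDR = 1.23e-04) and *Vcl* (-0.42, FDR = 0.0201), a share equal to that of all genes called (30.0%). All 12 were tested in differentiating NSPCs, where 10 were higher and 0 lower in *Kat6a*–/– vs. *Kat6a*+/+ (26.7% of all genes higher; median 1.31), led by *Cnn1* (2.98, FDR = 3.08e-04), *Cald1* (2.30, FDR = 7.94e-05) and *Vcl* (1.68, FDR = 3.44e-05), and 0 and 0 were higher without *Kat6a*–/– replicate 1 and without replicate 3. In *Kat6a*+/– vs. *Kat6a*+/+ NSPCs 0 genes of the 3 lists were called in either condition.

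**Figure D5:**
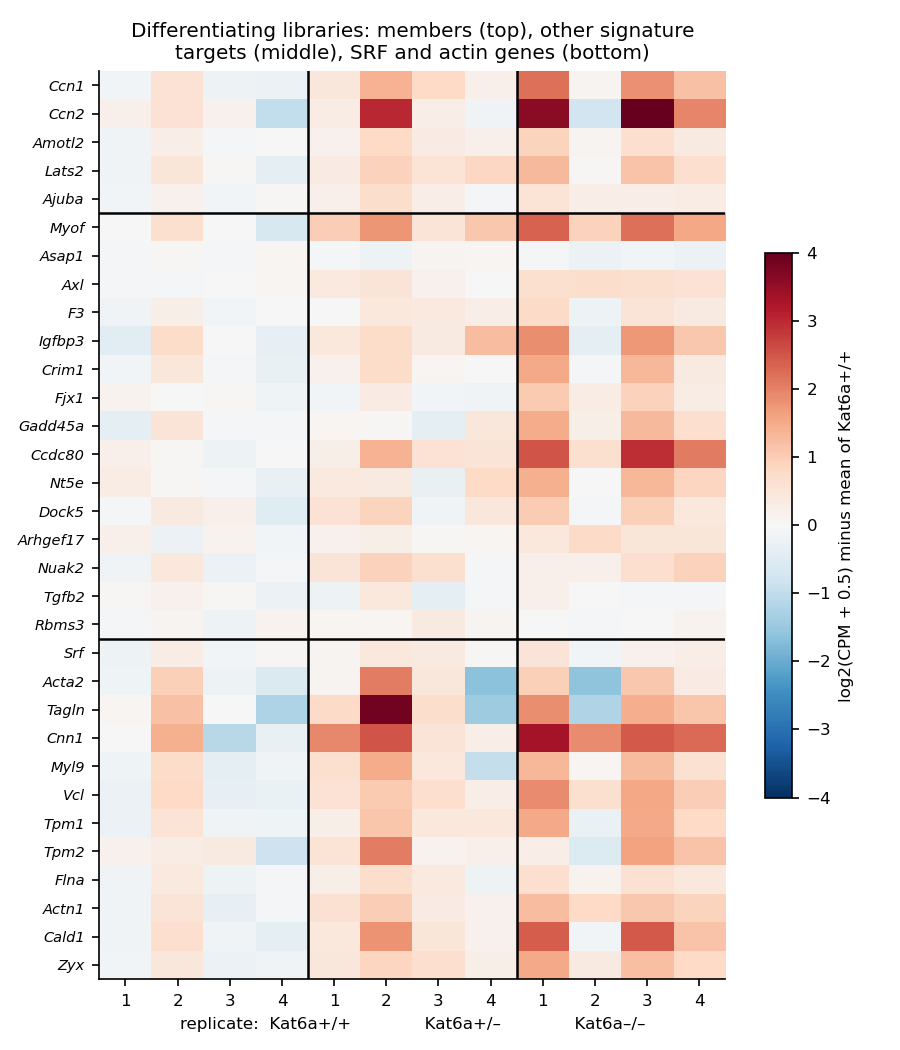
Log2(CPM + 0.5) minus the mean of the *Kat6a*+/+ libraries for 5 member targets (top), 15 other signature targets (middle) and 12 SRF and actin genes (bottom) in the 12 differentiating libraries, red for higher and blue for lower. *Kat6a*–/– replicates 1 and 3 are red over most rows, replicate 2 is pale, and *Kat6a*+/– replicate 2 is the reddest *Kat6a*+/– library, with *Ccn2* at 1322 CPM.

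Within the differentiating condition the targets followed one another from library to library. Over its 12 libraries, Pearson's r of log2 CPM was 0.959 for *Ccn1* with *Amotl2* and 0.934 for *Ccn1* with *Ccn2*. The lowest values between targets were 0.635 for *Lats2* with *Ajuba* and 0.677 for *Ccn2* with *Ajuba*. For the coactivators with *Ccn1*, r was 0.955 for *Wwtr1* and 0.650 for *Yap1*. For *Tead1* and *Tead2* with *Ccn1* it was -0.095 and -0.207. These values include the genotype differences and the shared libraries. Over the 12 proliferating libraries, r was 0.036 for *Ccn1* with *Amotl2*, 0.516 for *Ccn1* with *Ccn2* and -0.171 for *Wwtr1* with *Ccn1*. After centring within each condition, the genes most like *Ccn1* over the 24 libraries, of 11070 compared, included *Pmp22* (r = 0.860) and *Mcl1* (r = 0.852). The 3 most like *Ccn2* were *Crim1* (r = 0.930), *Cdr2* (r = 0.929) and *Sptan1* (r = 0.920), of which *Crim1* is itself on the list of signature targets, and for *Ankrd1* they were *Adam17* (r = 0.946), *Pls3* (r = 0.936) and *St3gal4* (r = 0.914), values over the 12 differentiating libraries, as *Ankrd1* had no counts in the others. These correlations are descriptions and carry no test.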

How the data were processed

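RNA was sequenced from 24 NSPC libraries made from 200 ng of RNA with a stranded mRNA kit. The authors aligned reads to mm39 with Rsubread and deposited raw counts per gene from featureCounts (RefSeq annotation; versions and strand setting are not given in the sources used here). Overlapping and antisense genes could therefore share reads. bcl2fastq is also named in the submitters' processing notes.

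From the counts, protein-coding genes (21030; 52 of 26411 genes had no biotype match) were filtered by edgeR's filterByExpr and scaled by TMM (R 4.3.3, edgeR 4.0.16, limma 3.58.1), without Xist and Y-linked genes. Following the study's methods, limma-voom was used for the proliferating libraries, with litter as a random block (correlation 0.287), and for the differentiating ones limma-trend (prior count 2) and arrayWeights, whose settings are not given in the sources used here. The 24 libraries were fitted jointly by limma-voom with litter as a random block (correlation 0.00365). Fits used robust empirical Bayes, and fold-changes with FDR below 0.05 were called. Each fit had its own scaling, so CPM and fitted values can differ slightly. Shares were compared by exact permutation tests. The fits were run on counts simulated with a common dispersion. The simulation held no litter effect and no libraries of unequal quality, so it did not test how the fits handle these.

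By their labels, libraries came from 5 litters in the proliferating and 7 in the differentiating condition, and 6 embryos gave a library in both. *Kat6a*+/+ replicate 1 carried the same embryo label in both conditions, but Y-linked RNA was at 211 CPM when differentiating and 0.049 CPM when proliferating. The labels of these libraries therefore conflict on sex and were used as given. P-values measure the spread between libraries of a group, which quality weights scaled in the differentiating fit. That fit had no litter term, and the joint fit no term for embryo. No replicates were identical (lowest chi-square per degree of freedom 5.55). Same-numbered libraries carried the same embryo label in 5 of 12 pairs across the conditions and in 0 of 12 within either. They carried the same litter label in 4 of 12 proliferating and 1 of 12 differentiating pairs. The litter number of 1 differentiating *Kat6a*+/+ library is that of a proliferating one with 2 digits exchanged, and was used as given. Y-linked RNA was at 0.109 CPM in this differentiating library and at 220 CPM in that proliferating one.

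The members and gene lists were chosen with earlier results of these data known. All members were named in each comparison, and from each further list the called genes with the 3 largest rises and the 3 largest falls in *Kat6a*–/– vs. *Kat6a*+/+; the 3 genes most like *Ccn1*, *Ccn2* and *Ankrd1* were named, except 1 that is not reported here. Alternatives were other scalings, filters, biotypes, edgeR's quasi-likelihood test, DESeq2 1.42.0, other litter, weight, sex and replicate terms, and leaving out each library. Depth was 7826660 to 40838203 counts per library. Floors of 3 counts cover counting error only, whereas the confidence intervals of the fits come from the fitted spread between libraries.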

Additional observations from a re-analysis of the deposited data

Results flagged for a closer look

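Of 69 groups of 4 libraries examined (the members' CPM and the shares in each group), 6 held a value far from the other 3 by Dixon's criterion, where chance alone gives about 1 in 20. All 6 were in the differentiating condition. *Wwtr1* was at 217 CPM and *Ccn1* at 299.6 CPM in *Kat6a*+/+ replicate 2. *Tead1* was at 317 CPM in *Kat6a*–/– replicate 3, *Tead2* at 50.6 CPM in *Kat6a*–/– replicate 2 and *Ajuba* at 234 CPM in *Kat6a*–/– replicate 1. *Ccn2* was at 1322 CPM in *Kat6a*+/– replicate 2, against 148 to 200.4 in the other 3 *Kat6a*+/– libraries, and *Acta2*, the smooth muscle actin gene, was at 1110.4 CPM in this library and 85.3 to 365 in the others.

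For 3 members the change from *Kat6a*+/+ to *Kat6a*–/– differed between the conditions in limma's interaction test: *Wwtr1* by 0.61 (SE 0.20, FDR = 0.0488), *Amotl2* by 1.09 (SE 0.29, FDR = 0.0164) and *Lats2* by 1.11 (SE 0.33, FDR = 0.0268) on the log2 scale, each higher in the differentiating condition. The difference for *Wwtr1* was called in 3 of 24 fits with 1 library left out, that for *Lats2* in 14 and that for *Amotl2* in 22.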

How the results depend on the processing

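Alternatives differed most for the members called in differentiating NSPCs. In *Kat6a*–/– vs. *Kat6a*+/+, 8 members were called (54.4% of all genes), but 5 by edgeR (24.3%) and 3 without sample weights (23.2%). With voom and litter as a random block, the method of the proliferating fit, 2 were called (21.0%), and 1 with litter as a fixed term (13.4%). In *Kat6a*–/– vs. *Kat6a*+/–, 6 were called (37.5%), but 2 by edgeR (12.4%), by DESeq2 (19.6%), without sample weights (12.1%) and with sex as a term (12.03%), 1 with voom and litter as a random block (10.5%) and 0 with litter as a fixed term (2.89%). In proliferating *Kat6a*–/– vs. *Kat6a*+/–, 0 were called, but 1 (*Tead2*) with library totals, by DESeq2 and with quality weights (15.2%, 12.9% and 18.3% of all genes). The interaction was called for 3, but for 1 with litter as a fixed term (11.5%) and 6 with quality weights (35.3%). Leaving out 1 library gave 1 to 3 members in proliferating and 1 to 8 in differentiating *Kat6a*–/– vs. *Kat6a*+/+, 0 to 1 and 0 to 6 in *Kat6a*–/– vs. *Kat6a*+/–, and 0 to 3 for the interaction, with 0 without proliferating *Kat6a*–/– replicate 1 or 4. The lone low counts in differentiating NSPCs came from leaving out *Kat6a*–/– replicate 1 or 3. For fits with 1 library left out, the share of all genes called is given above only for these libraries. Other such counts, of members or of list genes, cannot be set against all genes here. The cause of these differences was not tested.

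Among the members, directions turned for values that were not called, with 1 exception given below. In proliferating *Kat6a*–/– vs. *Kat6a*+/+, litter as a fixed term gave *Yap1* 0.010, *Tead1* 0.011, *Ccn1* -0.32, *Ccn2* -0.22 and *Ajuba* 0.0084, and *Ccn2* was -0.36 with quality weights and -0.0067 with sex. In proliferating *Kat6a*+/– vs. *Kat6a*+/+, *Tead1* was -0.035 with quality weights and -0.032 with sex, *Ccn2* -0.39 with litter fixed, -0.18 with quality weights and -0.054 with sex, and *Ajuba* -0.011 with quality weights. *Ccn2* was -0.18 in proliferating *Kat6a*–/– vs. *Kat6a*+/– with quality weights, and *Tead2* 0.048 in differentiating *Kat6a*+/– vs. *Kat6a*+/+ with sex. In differentiating *Kat6a*–/– vs. *Kat6a*+/–, library totals gave *Yap1* -0.0067 and *Ajuba* -0.042, and *Ajuba* was -0.10 with litter fixed and -0.018 with sex. Leaving out 1 library gave ranges across 0 in proliferating *Kat6a*–/– vs. *Kat6a*+/+ for *Wwtr1* -0.10 to 0.069, *Tead1* -0.11 to 0.013, *Ccn1* -0.28 to 0.27, *Ccn2* -0.42 to 0.47 and *Ajuba* -0.12 to 0.029; in *Kat6a*+/– vs. *Kat6a*+/+ for *Yap1* -0.019 to 0.085, *Tead1* -0.068 to 0.067, *Ccn1* -0.56 to 0.021, *Ccn2* -0.24 to 0.43 and *Ajuba* -0.050 to 0.12; and in *Kat6a*–/– vs. *Kat6a*+/– for *Tead1* -0.073 to 0.0095, *Ccn1* -0.11 to 0.49 and *Ccn2* -0.48 to 0.37. In differentiating *Kat6a*+/– vs. *Kat6a*+/+ they were *Tead1* -0.039 to 0.17 and *Tead2* -0.34 to 0.078, and in *Kat6a*–/– vs. *Kat6a*+/– *Lats2* -0.040 to 0.66, the 1 called value that turned, without *Kat6a*–/– replicate 3, and *Ajuba* -0.032 to 0.15. Among the named genes of the other lists, *Tead4* in differentiating *Kat6a*–/– vs. *Kat6a*+/+ ranged from -0.77 to 0.17.

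With library totals, the share of higher genes among those called fell from 49.1% to 31.7% in differentiating *Kat6a*–/– vs. *Kat6a*+/+, from 50.8% to 31.7% in *Kat6a*–/– vs. *Kat6a*+/– and from 45.6% to 22.1% for the interaction. With the replicate number as a block, 5 members were called in differentiating *Kat6a*–/– vs. *Kat6a*+/– (*Lats2* 0.53 (FDR = 0.0754) was lost), 2 for the interaction (*Wwtr1* 0.60 (FDR = 0.0673) was lost) and 1 in proliferating *Kat6a*–/– vs. *Kat6a*+/–, and the counts of the other comparisons were as in the main analysis, 2 and 8 in *Kat6a*–/– vs. *Kat6a*+/+; same-numbered libraries were paired in part only (their deviations from the group means correlated at r from -0.483 to 0.545). With embryo as a random block 9, 8 and 2 members were called for the condition in *Kat6a*+/+, the condition in *Kat6a*–/– and the interaction. For the replicate and embryo blocks the share of all genes called is not given here, so that these counts describe the members alone. With the unclear litter number read as the other litter, chosen after seeing the data, the calls of the members did not change. Few counts limit *Ankrd1* in all libraries and *Ccn2* in proliferating ones.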
